A study of Homo sapiens with 6 samples.

Results

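The clustered protocadherin genes were taken as all protein-coding genes on chromosome 5 whose symbols begin with PCDHA, PCDHB or PCDHG in RefSeq (GRCh38.p14). There were 53 of them among the 19974 protein-coding genes of chromosomes 1 to 22 and X, with 15 in the alpha, 16 in the beta and 22 in the gamma subcluster. They span 726.8 kb at chr5:140786140-141512975 and lie on the plus strand. NONO, H3T11ph and H3K27ac had been mapped by CUT&Tag, in which an antibody tethers the Tn5 transposase so that nearby DNA is cut out and sequenced, in the triple-negative breast cancer line MDA-MB-231. NONO was mapped in NC (labelled wild type) and NONO-KD cells (NONO knockdown), and H3T11ph and H3K27ac in NC and PKM2-KD cells (PKM2 knockdown). Each of the 6 groups was 1 library, so no value below has a replicate error and no test between conditions was possible. The study's methods use the name NC for the control of transient siRNA transfection and another name for the shRNA control, but do not state for the mapped cells which knockdown was used. The lists hold no expression values, so the knockdowns could not be checked from them.

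Clustered protocadherins are cadherin-like adhesion proteins that give neurons a surface identity, and matching sets of them let a neuron tell its own branches from those of other cells. Each alpha and gamma gene has its own promoter and variable exon, which is spliced to constant exons shared by the whole subcluster, whereas each beta gene is a single coding exon. Promoters are chosen through CTCF and cohesin, which bind a conserved promoter element with the core CGCT and connect chosen promoters to distant enhancers, and unchosen promoters are methylated. The C-type genes PCDHAC1, PCDHAC2, PCDHGC3, PCDHGC4 and PCDHGC5 follow other rules and are used more broadly. NONO is an RNA- and DNA-binding protein of paraspeckles, H3T11ph is phosphorylated threonine of histone H3 and H3K27ac is acetylated lysine of histone H3, a mark of active promoters and enhancers.

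The promoters are shown before the chromatin values because most of them hold the core letters of the conserved element ahead of their starts. RefSeq promoter windows of 300 bases (250 before to 50 after the start) were found for 47 of the 53 genes, and PCDHA3, PCDHA13, PCDHB6, PCDHB11, PCDHGA12 and PCDHGC5 had none. The stretches below run from 100 to 21 bases before the start on the plus strand, with CGCT, or its complement AGCG, in capitals. PCDHB11 had an H3K27ac NC region 10 bp from its start, but without a window no core could be sought there. Of the 47 genes with a window, the first set holds those at which a deposited region covered such a core. The core had to lie between 90 and 30 bases before the start, and any library counted.
PCDHA6, chr5:140827860-140827939: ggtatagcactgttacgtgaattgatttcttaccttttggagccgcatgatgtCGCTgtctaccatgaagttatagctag
PCDHA11, chr5:140868857-140868936: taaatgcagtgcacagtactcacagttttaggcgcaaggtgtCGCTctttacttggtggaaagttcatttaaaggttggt
PCDHGB1, chr5:141349999-141350078: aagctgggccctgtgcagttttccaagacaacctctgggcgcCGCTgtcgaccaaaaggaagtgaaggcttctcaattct
PCDHGB5, chr5:141397847-141397926: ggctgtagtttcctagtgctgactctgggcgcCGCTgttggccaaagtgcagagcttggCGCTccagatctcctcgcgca
PCDHGA10, chr5:141412887-141412966: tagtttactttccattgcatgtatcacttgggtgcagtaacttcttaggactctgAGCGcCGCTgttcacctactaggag
The next set holds the C-type genes that had a window, which differ from the others in base composition.
PCDHAC1, chr5:140926199-140926278: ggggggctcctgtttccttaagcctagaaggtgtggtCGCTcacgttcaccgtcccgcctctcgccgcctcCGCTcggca
PCDHAC2, chr5:140966376-140966455: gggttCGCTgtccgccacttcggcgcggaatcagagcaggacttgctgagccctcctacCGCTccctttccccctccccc
PCDHGC3, chr5:141475866-141475945: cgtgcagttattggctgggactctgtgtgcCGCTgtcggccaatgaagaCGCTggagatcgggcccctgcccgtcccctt
PCDHGC4, chr5:141484930-141485009: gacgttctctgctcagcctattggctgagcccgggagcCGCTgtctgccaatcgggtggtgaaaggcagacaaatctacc

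Read on the strand of the gene, CGCT lay between 90 and 30 bases before the start in 42 of 47 protocadherin promoters, 89.4%, against 24.1% of the 15812 promoters searched. These 42 genes held 46 such sites, between 38 and 84 bases before the start with a median of 56.0. Anywhere in the window and on either strand, CGCT was found in 97.9% of member promoters and 81.0% of all promoters, so the share in the whole window says little and the position says more. PCDHA9, PCDHB5, PCDHB8, PCDHGA1 and PCDHGB2 had no CGCT in the narrow stretch. The PCDHGB2 window was set from a start 142 bp past the gene's own. It holds CGCT on the gene's strand at -199 bases from that later start, which is also before the gene's own start. The narrow stretch does not reach this site when counted from the later start, but holds it when counted from the gene's own start. CCCTC, letters of the name motif of CTCF, was found in 25.5% of member promoters and 76.5% of all promoters. A match of letters is a description, and is no evidence of the whole element or of binding.

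GC content set the C-type promoters apart. The median over all promoters was 62.7%, and the median over the members was 39.7%. PCDHAC1 had 66.0%, PCDHAC2 63.0%, PCDHGC3 59.0% and PCDHGC4 60.7%. The other alpha promoters ran from 33.7% to 40.3%, the beta promoters from 33.3% to 46.3% and the other gamma promoters from 32.3% to 51.3%. The C-type promoters had a median of 20.5 CpG pairs in 300 bases, beside 22 over all promoters and 7 over the members. PCDHGB2, at 51.3%, had the highest GC of the other gamma genes. Among the 1081 pairs of member promoters, the most alike were PCDHGB4 and PCDHGB5, with 75.1% of bases identical at a shift of 3 bases, beside a median of 32.4% over all pairs. How reads that fit several genes were treated is not given in the sources used here, so a region at one such gene may hold reads of another.

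**Figure D1:**
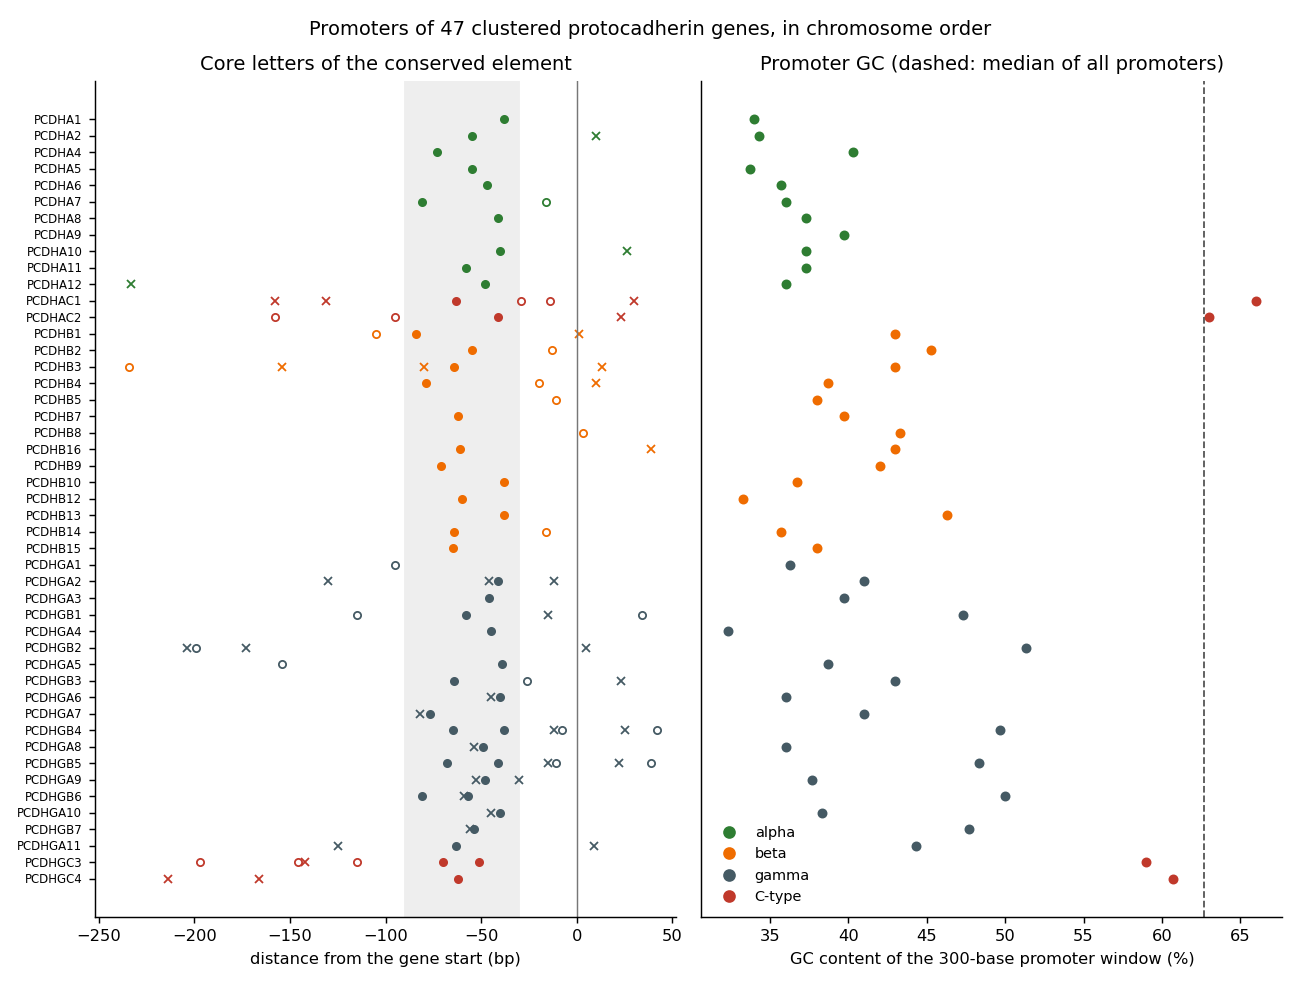
The left panel plots the distance in bp from each gene start to every CGCT match (circles on the gene's strand, crosses on the other strand, filled circles within 90 to 30 bases before the start, grey band). The right panel plots the GC content in percent of each 300-base window, with a dashed line at 62.7%, the median of all promoters, near which only the 4 C-type genes lie.

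Each enriched region of a list comes with its fold over the local background and its −log10 p and q. From these the number of fragments stacked at the summit was recovered. The lists were not of the same form. The share of regions as narrow as the narrowest of their list was 94.6% in NONO NC and 79.3% in H3K27ac NC, against 1.19% to 2.05% in the other 4 lists. Only the H3T11ph pair had 1 form, so for NONO and H3K27ac the processing and the knockdown cannot be told apart. The lists held between 36583 and 572970 regions, and the recovered depth was 2.84 to 7.48 fragments per kb.

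H3K27ac was sparse at protocadherin promoters. A region lay within 1 kb of the start in 15 of 53 genes in NC, 28.3% (exact 95% binomial interval 16.8 to 42.3), and in 6 genes in PKM2-KD, 11.3% (4.27 to 23). Over all protein-coding genes the shares were 68.4% in NC and 59.4% in PKM2-KD. NONO regions lay at 5 starts in NC, 9.43% (3.13 to 20.7) beside 21.7% of all genes, and at 2 starts in NONO-KD, 3.77% (0.460 to 13.0) beside 7.41%. H3T11ph lay at none of the 53 starts in either library, which allows a share of up to 5.66% when 3 counts are taken as the limit of a count of 0 (6.72% by the exact interval), whereas 14.9% of all genes in NC and 14.7% in PKM2-KD had a region there. Intervals cover counting error only, and neighbouring genes are not independent. RefSeq gave no strand for 4156 of the other genes, for which either end was used. Among genes with a strand the shares were 66.9% and 59.6% for H3K27ac, 20% and 6.46% for NONO, and 14.7% and 14.9% for H3T11ph.

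**Figure D2:**
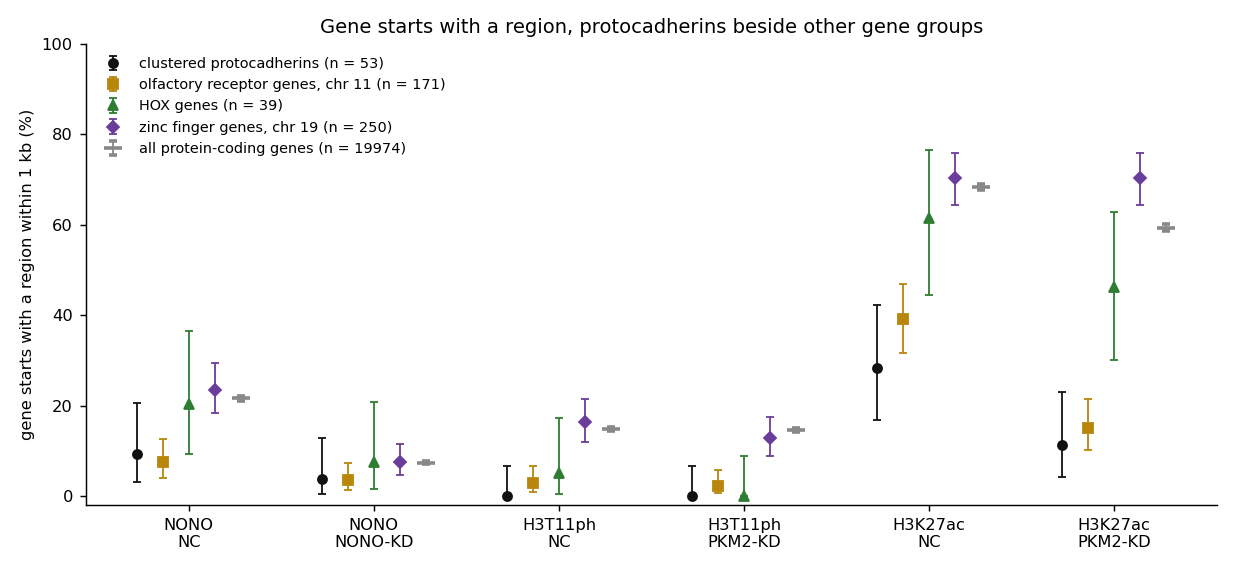
The vertical axis is the share of gene starts, in percent, with a region within 1 kb, in each of the 6 libraries along the horizontal axis, with exact 95% binomial intervals as bars. The protocadherins (black, 53 genes) lie with the olfactory receptor genes and below all protein-coding genes in both H3K27ac libraries, at 28.3% and 11.3%.

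Shares were lower over all genes where promoter GC was low. Of the 12970 other genes with a promoter GC of at least 50%, 71.3% had H3K27ac at the start in NC and 66.4% in PKM2-KD, whereas of the 2795 under 50%, 47.1% and 29% did. The 41 protocadherins in that range had 24.4% (12.4 to 40.3) and 7.32% (1.54 to 19.9), so both intervals lay below the values of the other low-GC genes. For NONO in NC the 41 protocadherins had 12.2% (4.08 to 26.2) and the other low-GC genes 9.12%, and in NONO-KD the shares were 4.88% (0.596 to 16.5) and 3.65%. For H3T11ph the other low-GC genes had 5.90% and 6.08%, values that lie within both the limit of 7.32% that 3 counts of 41 give for 0 of 41 and the exact bound of 8.60%. The split at 50% was chosen after the values were seen, and the part of GC content in the result was not tested.

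Other gene clusters gave a scale for these shares. The 171 olfactory receptor genes of chromosome 11 had H3K27ac at 39.2% (31.8 to 46.9) of starts in NC and 15.2% (10.2 to 21.5) in PKM2-KD. These intervals overlapped those of the protocadherins. HOX genes, the body-axis transcription factors, had it at 24 and 18 of 39 starts, and the 250 zinc finger genes of chromosome 19 at 70.4% in both libraries. Of 11 non-clustered protocadherins, cousins of the same fold outside the cluster, 4 had it in NC and 5 in PKM2-KD. All 12 regulators of the cluster, among them CTCF, the cohesin subunits and the methyltransferase gene DNMT3B, had H3K27ac at the start in both libraries. Of 11 genes for cytoplasmic partners, kinases and WAVE complex subunits, 10 and 8 had it. For NONO in NC the counts were 1 of 11 non-clustered protocadherins, 5 of 12 regulators and 4 of 11 partners, and in NONO-KD 0, 1 and 3. For H3T11ph they were 0, 3 and 3 in NC and 2, 2 and 6 in PKM2-KD. PCDH1, a non-clustered protocadherin that also lies on chromosome 5, had H3K27ac in both libraries and NONO in NC.

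Most protocadherin starts were free of every list. In 29 of 53 genes no library had a region at the start, 54.7% beside 17.3% of all genes. In 20 genes 1 library had one and in 4 genes 2 libraries had one, and no member reached 3. Over all genes, 18.7% had regions in 3 libraries, 7.48% in 4, 2.60% in 5 and 0.506% in all 6. The 4 genes with regions in 2 libraries were PCDHA6, PCDHB16, PCDHGB1 and PCDHGB2.

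The distance from each start to the nearest region was taken for the members only, with no other genes beside them. Neighbouring starts were a median of 6.35 kb apart. The median distance from a start to the edge of a region was 1.85 kb in H3K27ac NC and 10.7 kb in H3K27ac PKM2-KD, with highest values of 12.9 kb and 76.5 kb. It was 20.7 kb in NONO NC and 30.7 kb in NONO-KD, and 34.5 kb in H3T11ph NC and 90 kb in H3T11ph PKM2-KD. For H3K27ac after the PKM2 knockdown the gamma starts had the shortest median, 6.43 kb, beside 10.4 kb in beta and 21.5 kb in alpha. In NONO NC the beta starts had the shortest, 7.24 kb, beside 26.8 kb in alpha and 31.8 kb in gamma. These distances also follow the number of regions in each list.

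**Figure D3:**
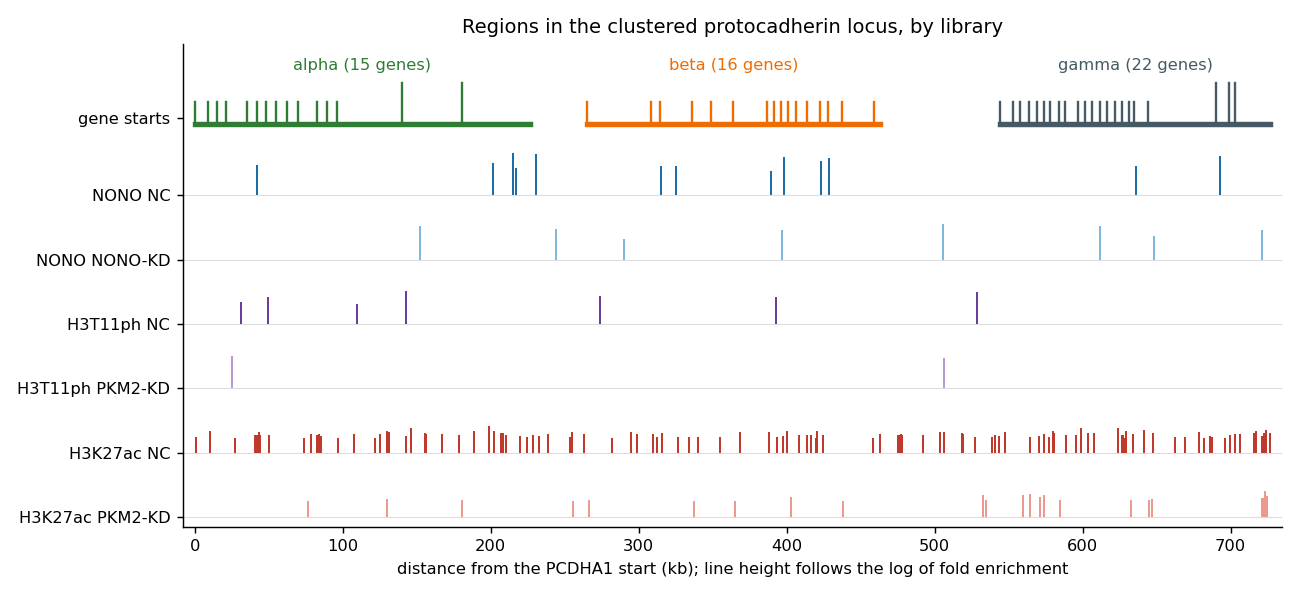
Each row is 1 library and each vertical line 1 deposited region, drawn at its distance in kb from the PCDHA1 start with a height that follows the log of its fold enrichment. The top row shows the 53 gene starts by subcluster, with longer lines for the C-type genes, and the 118 H3K27ac NC regions run along the whole locus whereas 12 of the 23 H3K27ac PKM2-KD regions lie in gamma.

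In H3K27ac NC the genes with a start region were PCDHA1, PCDHA6, PCDHA11 and PCDHA13 in alpha, PCDHB16, PCDHB9 and PCDHB11 in beta, and PCDHGA1, PCDHGB1, PCDHGB2, PCDHGA7, PCDHGA8, PCDHGA10, PCDHGC4 and PCDHGC5 in gamma. That is 4 of 15, 3 of 16 and 8 of 22 genes. The highest fold at a start was 7.59 at PCDHB9, from 19 fragments in a 112 bp region 588 bp before the start by its summit. PCDHGA8 followed with a fold of 5.78 from 14 fragments, 837 bp past the start. No start region in this list reached 2 times the narrowest width, although 11.8% of all regions in the list did.

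In H3K27ac PKM2-KD the 6 genes were PCDHAC2, PCDHB14, PCDHGB1, PCDHGB2, PCDHGB3 and PCDHGA12. PCDHGB1 and PCDHGB2 had H3K27ac in both libraries, a state shared by 50.4% of all genes. Another 13 members had it only in NC, 24.5% beside 18.0% of all genes, and 4 had it only in PKM2-KD, 7.55% beside 9.02%. The NC list held 572970 regions and the PKM2-KD list 212856. The NC list was also reduced to its 212856 regions of lowest q. Then 3 protocadherin starts (PCDHB9, PCDHGB2 and PCDHGA8) kept a region in NC beside 6 in PKM2-KD, so the order of the libraries turned. Over all genes the shares were then 47.9% and 59.4%. With a −log10 q of at least 5 in both lists, 2 starts had a region in each, beside 42.4% of all genes in NC and 51.1% in PKM2-KD.

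In PKM2-KD the highest H3K27ac folds at protocadherin starts were at PCDHGB1 and PCDHGB2, whereas in NC both were below PCDHB9 and PCDHGA8. At PCDHGB1 the PKM2-KD region chr5:141350030-141350463 was 434 bp wide and ran from 69 bp before to 364 bp past the start, across the CGCT core printed above. Its fold was 9.22 from 16 fragments, with a summit 16 bp past the start. In NC the same gene had 2 regions of 112 bp, with folds of 2.87 and 3.24 from 6 and 7 fragments. The nearer of these, chr5:141350215-141350326, lay wholly inside the PKM2-KD region. At PCDHGB2 the PKM2-KD region chr5:141359964-141360234 was 271 bp wide with a fold of 7.59 from 13 fragments. The NC region chr5:141360123-141360234 had a fold of 5.05 from 12 fragments. With counts in the NC list scaled by 0.521, NC folds are not on the scale of the PKM2-KD folds. Neither gene had a NONO or H3T11ph region within 30 kb of its start.

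The other start regions of H3K27ac PKM2-KD were weak, with folds from 3.25 at PCDHB14 to 3.83 at PCDHAC2 and 5 to 8 fragments. The PCDHAC2 region was 127 bp wide and its summit lay 578 bp past the start. PCDHAC1 and PCDHGC3 had no start region in any library. PCDHGC4 had an H3K27ac region in NC with a fold of 3.96 from 9 fragments, 878 bp past the start, and PCDHGC5 had one with a fold of 4.69 from 11 fragments, 264 bp before it. No C-type gene had a NONO or H3T11ph region at its start, although NONO in NC had a region of 94.2-fold at chr5:141478797-141479065, 2965 bp past the PCDHGC3 start.

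The median fold of the NONO regions in the cluster lay above the list median in NC and below it in NONO-KD, with single regions on either side. The NC list had 13 regions in the cluster, each 269 bp wide. Their folds ran from 10.5 to 128.5, with a median of 34.7 beside 23.7 over the whole list. In NONO-KD there were 8, with folds from 5.87 to 50.1 and a median of 24.3 beside 32.6. The NC start regions were at PCDHA6 (23.2-fold), PCDHB3 (22.1-fold), PCDHB12 (43.7-fold), PCDHB13 (66.3-fold) and PCDHGA11 (21.6-fold). These 5 genes had NONO only in NC, 9.43% of members beside 19% of all genes. PCDHB16 and PCDHGB5 had NONO only in NONO-KD, 3.77% beside 4.74%. No member had NONO in both.

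The PCDHA6 region, chr5:140827811-140828079, ran from 149 bp before to 119 bp past the start, held 43 fragments and covered the CGCT core. An H3K27ac NC region of 4.33-fold lay 286 bp past its end, and the other 4 libraries had no region at this start. At PCDHGB5 the NONO-KD region chr5:141397833-141397978 ran from 114 bp before to 31 bp past the start, with a fold of 40.7 from 51 fragments, and covered both CGCT cores of that promoter. PCDHGB4, whose promoter is 75.1% identical, had no NONO region in either library. At PCDHB13 and PCDHB12, which had the highest NONO folds at starts in NC, the summits lay 1076 bp and 748 bp past the start, and these regions held 125 and 82 fragments.

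PCDHB16, a single-exon gene of 3840 bp, had regions of 3 lists within its first 2 kb that did not touch one another. NONO-KD had chr5:141183132-141183233 with a fold of 21.1 from 26 fragments. H3K27ac NC had chr5:141183325-141183436 with a fold of 3.60, 91 bp further on. NONO NC had chr5:141183864-141184132 with a fold of 79 from 149 fragments, 427 bp beyond that and outside the 1 kb window. The NONO regions of the 2 libraries were 630 bp apart, the only NONO pair in the cluster within 1 kb. The H3T11ph libraries and H3K27ac PKM2-KD had no region at this start.

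**Figure D4:**
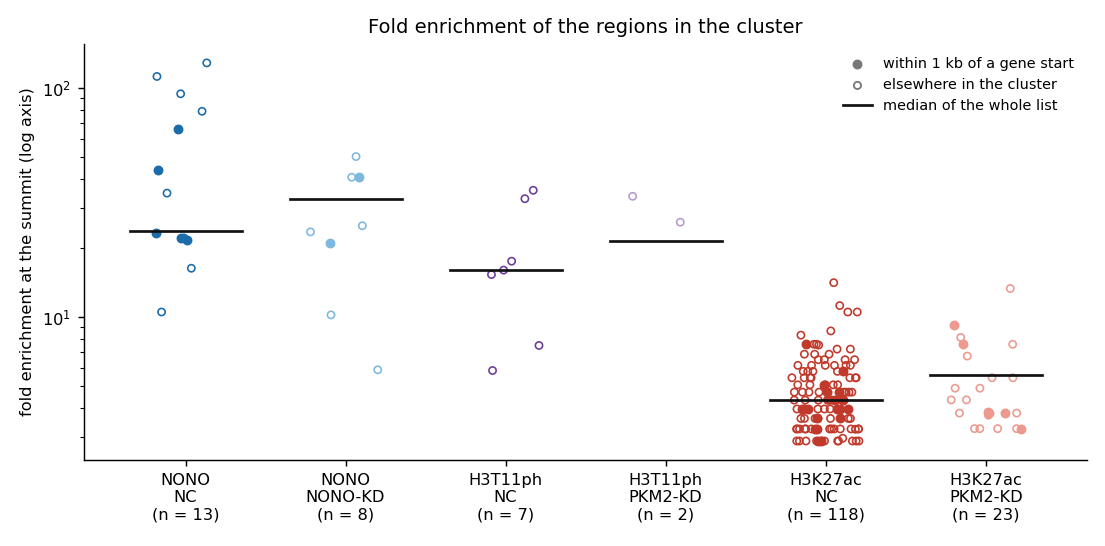
The vertical log axis gives the fold enrichment at the summit of each region in the cluster, by library along the horizontal axis, with filled points for regions within 1 kb of a gene start and horizontal lines at the median of the whole list. The 13 NONO NC regions run from 10.5 to 128.5 and the 118 H3K27ac NC regions from 2.87 to 14.1.

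In each library the NONO region of highest fold in the cluster lay away from promoters. In NC the highest, chr5:141001081-141001349, had a fold of 128.5 from 243 fragments, higher than 97.2% of its list, and lay 34676 bp past the PCDHAC2 start in the part of alpha that holds no further start. The next, chr5:141016679-141016947, had a fold of 112.1 and lay 4332 bp past the shared alpha end. In NONO-KD the highest, chr5:141291978-141292096, had a fold of 50.1 from 63 fragments and lay between beta and gamma, and the next, at 40.7, were the PCDHGB5 start region and one 11809 bp past the PCDHAC1 start. Its neighbours were an H3K27ac NC region 109 bp away and the H3T11ph PKM2-KD region chr5:141292632-141292774, with a fold of 25.9, 535 bp away.

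H3T11ph stayed off the starts. The 7 regions in NC had folds from 5.83 to 35.7, and the 2 in PKM2-KD had folds of 33.6 and 25.9. Within the 1 kb of each start there was none, so no member fell into the states of H3T11ph in NC only (9.92% of all genes) or in PKM2-KD only (9.75%). The nearest in NC lay 1.02 kb from a start, at PCDHA7 (chr5:140835293-140835442, 15.3-fold), which is also the widest at 150 bp. The highest, chr5:140929094-140929220, had a fold of 35.7 from 48 fragments and lay 2873 bp past the PCDHAC1 start. In gamma H3T11ph had no region in either library. The exact 95% Poisson interval there, 0 to 20.2 per Mb in both, held the genome values of 14.1 in NC and 12.1 in PKM2-KD. The cluster had 9.63 regions per Mb in NC (exact 95% Poisson interval 3.87 to 19.8) beside 14.1 over the genome, and 2.75 in PKM2-KD (0.333 to 9.94) beside 12.1. This pair had lists of 1 form, and the intervals of the 2 libraries overlapped.

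H3K27ac was counted along the locus. In NC the cluster had 118 regions, 162.3 per Mb (134.4 to 194.4) beside 189.1 over the genome. Alpha had 154.7 per Mb (107.8 to 215.2), beta 121.2 (77.7 to 180.4) and gamma 208.3 (147.4 to 285.9), and only the beta interval lay below the genome value. In PKM2-KD the cluster had 23 regions, 31.6 per Mb (20.1 to 47.5) beside 70.2. Alpha had 13.3 (2.73 to 38.8), beta 25.3 (8.20 to 58.9) and gamma 65.8 (34.0 to 114.9), so the alpha and beta intervals lay below the genome value and the gamma interval held it. The intervals of the 3 subclusters overlapped one another in both libraries, and the differences between them were not tested. Stretches of the same length on either side had 216.0 and 232.5 per Mb in NC and 97.7 and 93.6 in PKM2-KD. With the NC list reduced to the length of the PKM2-KD list, 44 of its regions were in the cluster beside 23. For NONO the cluster had 17.9 per Mb (9.52 to 30.6) in NC beside 29.5, and 11 (4.75 to 21.7) in NONO-KD beside 14.6. NONO in NC was most frequent in beta, with 30.3 per Mb (11.1 to 66) beside 17.7 in alpha and 11 in gamma, and these intervals overlapped.

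**Figure D5:**
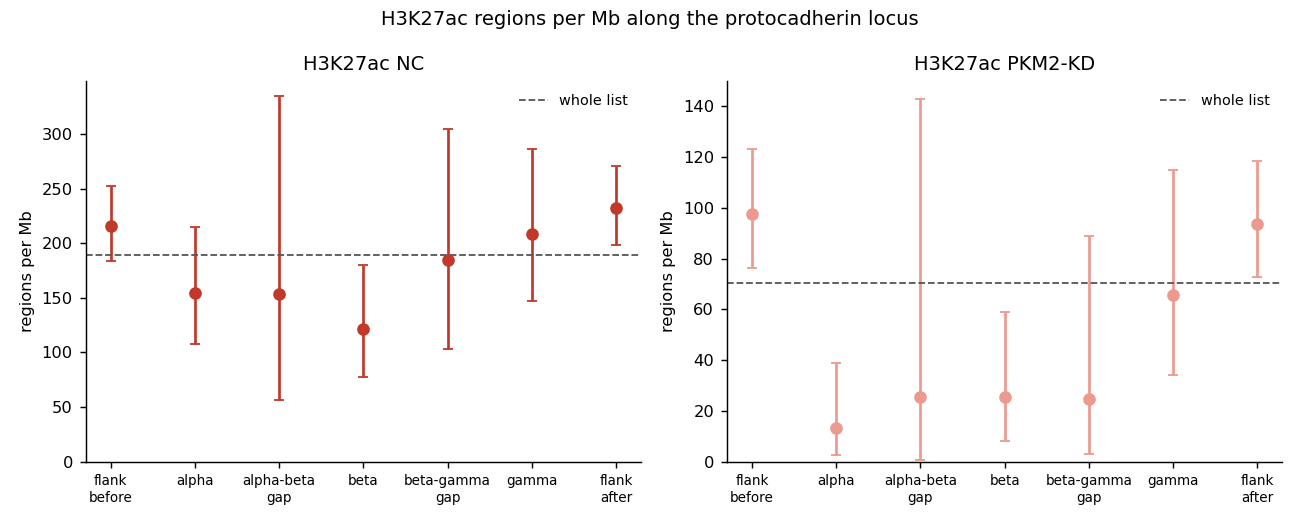
Each panel is 1 H3K27ac library, and the vertical axis gives regions per Mb in the flanks, subclusters and gaps of the locus with exact 95% Poisson intervals as bars. The dashed line is the whole list, 189.1 per Mb in NC and 70.2 in PKM2-KD, and in PKM2-KD the alpha and beta intervals lie below it and the gamma interval holds it.

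The 2.5 kb from each start, where variable exons begin, make up 18.2% of the cluster. Of the H3K27ac regions in the cluster, 14 of 23 in PKM2-KD, 60.9% (38.5 to 80.3), had their summit there, and 33 of 118 in NC, 28% (20.1 to 37). Over the whole lists such windows made up 1.28% of the genome and held 5.17% of PKM2-KD and 2.62% of NC summits. Within 1 kb of a start on either side, 14.5% of the cluster, the H3K27ac counts were 6 in PKM2-KD and 18 in NC. In the first 2.5 kb the NONO counts were 5 of 13 in NC (13.9 to 68.4%) and 1 of 8 in NONO-KD (0.316 to 52.7%). Over the whole NONO lists the shares were 3.24% and 1.98%. The H3T11ph counts were 2 of 7 in NC (3.67 to 71.0%) and 0 of 2 in PKM2-KD (0 to 84.2%). Over the whole H3T11ph lists the shares were 3.47% and 3.91%. Each of these NONO and H3T11ph intervals held 18.2%, the part of the cluster in such windows. The wide H3K27ac regions, at least 2 times the narrowest width, numbered 8 in NC and 5 in PKM2-KD, and 36.5% of the whole PKM2-KD list was that wide.

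The shared 3′ part of gamma held the broadest acetylation in the cluster. All gamma gene spans have 1 end, at 141512975, and 4 of the 6 overlaps between the H3K27ac lists lay between 141507392 and 141510019. The widest region in the cluster of each H3K27ac list was there. In NC it was chr5:141508832-141509600, 769 bp wide with a fold of 5.78 from 14 fragments. In PKM2-KD it was chr5:141509035-141510019, 985 bp wide with a fold of 13.3 from 25 fragments, the highest fold of that list in the cluster, and 566 bp were common to both. A further NC region lay 53 bp before the gamma end. The alpha end had no region of any list within 1 kb, and the nearest was an H3K27ac NC region 1762 bp away. The highest fold of H3K27ac NC in the cluster, 14.1 from 37 fragments, was at chr5:140984916-140985112, 18525 bp past the PCDHAC2 start.

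Other H3K27ac regions stood in groups away from starts, and were picked out after their positions were seen. About 10 kb before PCDHAC1, NC had regions at chr5:140915763-140915908, chr5:140916715-140916826 and chr5:140917003-140917217, with folds of 7.23, 4.33 and 6.5. The PKM2-KD region chr5:140916292-140916426, with a fold of 4.34, lay between them, 383 bp and 288 bp from its neighbours. Past PCDHB15, NC had 6 regions between 141261205 and 141264233 with folds from 2.87 to 5.05, and PKM2-KD had none between 141224289 and 141319034.

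Few regions of one library were found again in the other. Of the 118 H3K27ac NC regions 6 overlapped a PKM2-KD region by at least 1 bp, 5.08% (Wilson 95% interval 2.35 to 10.7) beside 13.3% over the genome, and all of them were in gamma. In the other direction 5 of 23 PKM2-KD regions overlapped an NC region, 21.7% (9.66 to 41.9) beside 33.2%. None of the 13 NONO NC regions was found in NONO-KD, which allows up to 23.1% by the limit of 3 counts (Wilson bound 22.8) and so does not exclude the genome value of 2.01%. None of the 7 H3T11ph NC regions was found in PKM2-KD, which allows up to 42.9% by the same limit (Wilson bound 35.4), beside 5.75% over the genome. No NONO or H3T11ph region in the cluster overlapped a region of any other list.

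The 2 genes of other families inside the cluster differed between the H3K27ac lists. TAF7, a subunit of the general transcription factor TFIID, lies between beta and gamma. It had a 566 bp region in PKM2-KD with a fold of 3.72 from 31 fragments over a local background of 7.61 fragments, and none in NC. SLC25A2, a mitochondrial ornithine carrier, had a 112 bp region of 5.42-fold in NC and none in PKM2-KD. Neither had NONO or H3T11ph.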

How the data were processed

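The 6 narrowPeak lists were used as the authors deposited them, 1 per library. Per the submitters' processing notes they were made on hg38 with cutadapt 1.18, FastQC 0.11.9, SAMtools 1.3.1 and MACS2 2.1.1.20160309. The aligner, duplicate handling, control library and caller settings are not given in the sources used here. The deposited score, the fold (a ratio of the summit to its background) and the −log10 p and −log10 q values are the authors' own, and the deposited summit position is an offset in bp. Lists end near a q of 0.05, so weaker signal is unseen.

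Genes, starts and promoter windows came from RefSeq (GRCh38.p14). A gene had a region when any part of it lay within 1 kb of the start. Regions in overlapping gene spans were counted once. Summit fragments were recovered from fold and −log10 p, with a match within 0.002, for at least 99.5% of rows tried, after scaling by 0.521 in H3K27ac NC. Shares had exact binomial or Wilson intervals and densities exact Poisson intervals, at 95%. Groups came from the sample titles. With 1 library per group no test was run. Overlap and assignment were tested on simulated data.

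The members, gene lists and comparisons were chosen with earlier results of these data known. Members were named if C-type, if at least 3 libraries had a start region, or if among the 2 highest folds of a library at starts. Regions elsewhere in the cluster were named if they had the highest fold or width there in their list. PCDHA6, PCDHA11, PCDHGA10, the other start regions with values, and further regions near these, were named after their values were seen, as were the motif stretch and the flanks. The share of whole lists in the first 2.5 kb of genes used the 15818 genes with a strand and was added after seeing the data. Python 3.11.15, numpy 2.4.6, pandas 2.3.3, scipy 1.17.1 and matplotlib 3.10.9 were used.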

Additional observations from a re-analysis of the deposited data

How the results depend on the processing

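No paired analysis was possible because there was 1 library in every group. Alternatives were a −log10 q of at least 5, a width of at least 2 times the narrowest, lists of equal length within a pair, a 2.5 kb window, either gene end, the summit in place of the region and a 50% overlap. Starts with a region in NONO NC (5 as reported) became 0 with the width filter (beside 0.966% of all genes), 2 with equal lengths (beside 11.4%) and 3 by summit (beside 20.1%). In NONO-KD (2) they became 0 with the width filter (beside 0.676%). In H3T11ph NC (0) they became 2 within 2.5 kb (beside 21.2% of all genes) and 1 at either end (beside 17.8%). In H3K27ac NC (15) they became 2 at the stricter q (beside 42.4% of all genes), 0 with the width filter (beside 35.9%) and 3 with equal lengths (beside 47.9%). They became 36 within 2.5 kb (beside 83.2%) and 33 at either end (beside 77.9%), since the shared gamma end counts for all 22 gamma genes. In H3K27ac PKM2-KD (6) they became 2 at the stricter q (beside 51.1% of all genes), 2 with the width filter (beside 46.8%) and 14 within 2.5 kb (beside 68.6%). Regions in the cluster fell to 0 with the width filter in both NONO and both H3T11ph lists, and to 8 and 5 in H3K27ac NC and PKM2-KD. With equal lengths NONO NC kept 7 and H3K27ac NC 44. At the stricter q H3K27ac NC kept 31 and PKM2-KD 9. Among wide regions 25% of the 8 in H3K27ac NC were found again, and none were left to compare for NONO and H3T11ph. The 28 start calls over all 6 libraries became 11 at the stricter q. All other counts under these alternatives stayed within 1.5 times their value, and the shares found again in NONO and H3T11ph stayed at 0. The change from NC to PKM2-KD in H3K27ac at starts turned with equal lengths (3 and 6) and was level at the stricter q (2 and 2), and the cause was not tested. Widths and region counts follow the form of each list, and 5 to 19 fragments at the H3K27ac start regions limit what a single gene shows.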
